A study of Homo sapiens with 3 samples.

Results

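The Kruppel-like transcription factors (KLF) are described here by 10 members, KLF2, KLF3, KLF4, KLF5, KLF6, KLF7, KLF9, KLF10, KLF11 and KLF13, out of 19695 named genes on the arrays. They were taken by name, through the RefSeq transcript accession that each probe carries, and were represented by 11 of 25701 named probes. RNA came from PANC-1 cells, an established human pancreatic ductal carcinoma line, in 3 groups with 1 Agilent 1-colour array each. The groups were control cells, cells treated with cantharidin at 20 µM for 24 h, and cells treated with okadaic acid, for which the sample label also gives 20 µM, although the treatment text leaves its concentration unclear, for 24 h. What the control cells received was not given in the sources used here. Cantharidin, a blister beetle toxin, and okadaic acid, a marine toxin, both inhibit protein phosphatase 2A (PP2A), and the arrays addressed how gene expression changed under either agent. With 1 array per group there was no replicate check, and no test or p-value between groups could be computed. A gene counted as higher or lower when its scaled signal differed by more than 1.5-fold. Fewer cells of a type and less RNA per cell cannot be told apart in such bulk RNA.

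KLF proteins bind GC-rich and CACCC-type sequences in promoters through 3 zinc fingers at their C-terminal end, which they share with the SP factors. Their N-terminal parts differ: KLF2, KLF4, KLF5, KLF6 and KLF7 mostly activate transcription with acetyltransferase partners, KLF3 represses through the CtBP corepressors, and KLF9, KLF10, KLF11 and KLF13 carry a region that binds the SIN3 corepressor. In epithelial and pancreatic ductal cells the family is known for its part in proliferation, differentiation and the response to growth factors and stress.

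All 10 members were well above background on all 3 arrays. Their signals were 2.02 to 290 times the lowest signal that counted as well above background on the same array, and KLF3 on the control array was the nearest to that floor. The scanner software's own error estimate was 10.0% to 12.1% of the signal for these spots, except for KLF3 on the control array with 16.1%. Among probes printed 10 times per array, the median SD between spots was 0.07 on the log2 scale, which measures the spot and not the culture. Of the 6 markers fixed for PANC-1 cells, KRT7, KRT8, KRT18, KRT19 and VIM were well above background on every array and TFPI2 on none. Of 12 markers of other cell types, 9 to 10 were also well above background, and their summed intensity was 6716 in control, 5435 with cantharidin and 14893 with okadaic acid, of which CD14 alone gave 2535, 1838 and 11044. ALB was well above background on no array, and 1 of 3 PECAM1 probes was so in control and none on the other arrays. Against control, GCG (log2 1.51) and PRSS1 (1.32) were higher and VWF (-0.78) lower with cantharidin, and CD14 (1.87) was higher and VWF (-0.99) lower with okadaic acid, where CD3E gave 0.34. Of the PANC-1 markers, KRT8 (-1.17) was lower and KRT18 (0.99) higher with cantharidin, where KRT7 gave -0.56, and KRT19 (1.37) and KRT18 (2.29-fold) were higher and KRT7 (-0.74) lower with okadaic acid. The part of these signals in the KLF results was not tested. The arrays lay at slide positions 4 (control), 1 (cantharidin) and 2 (okadaic acid), so position and group cannot be told apart.

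With cantharidin, KLF3, KLF4 and KLF5 were higher than in control, and KLF6, KLF7, KLF9 and KLF11 were lower. With okadaic acid, KLF2, KLF3, KLF4, KLF5, KLF7 and KLF13 were higher, and KLF11 was lower. Against control, 3 of 10 members were higher and 4 lower with cantharidin, where 27.5% of all 16642 genes compared were higher and 34.1% lower. With okadaic acid 6 of 10 were higher and 1 lower, where 28.1% of 16164 genes were higher and 28.8% lower. Scaling the arrays to their medians instead gave 5 members higher and 2 lower, beside 24.8% and 32.4% of all genes. Without any scaling the members' counts were again 6 and 1, while the shares over all genes became 36.6% higher and 22.4% lower. The members' median log2 difference was -0.20 with cantharidin, beside -0.16 over all genes, and 0.96 with okadaic acid, beside 0.01 over all genes. Both comparisons share the control array, so they are given side by side and were not related to each other.

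**Figure D1:**
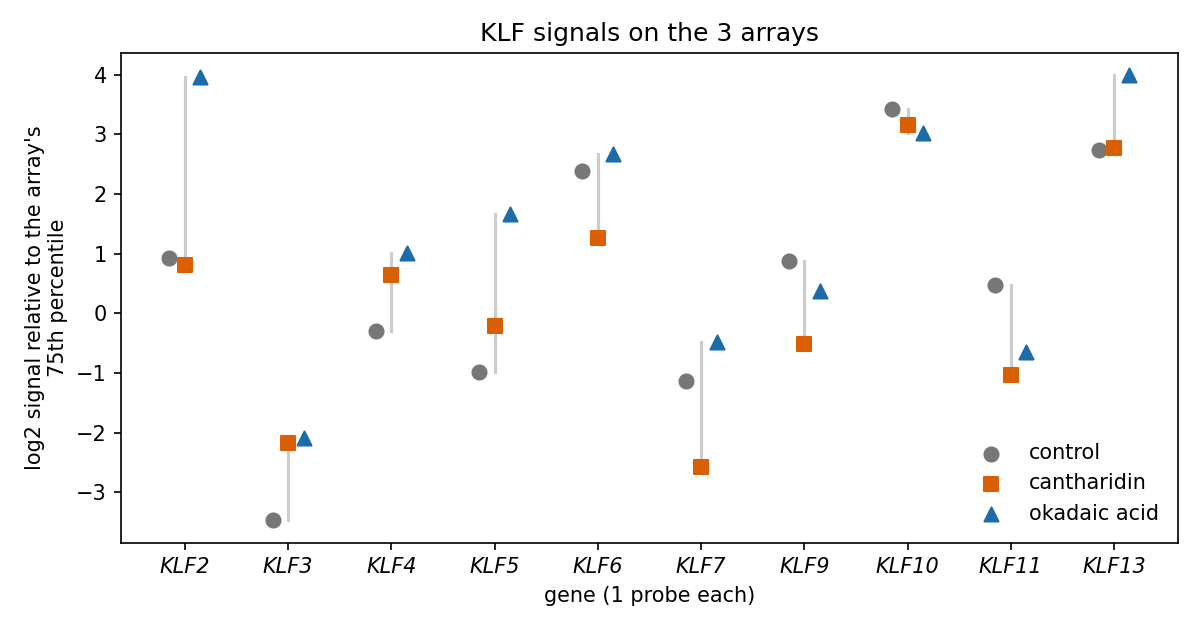
Scaled signals of the 10 KLF genes in control cells and with cantharidin or okadaic acid, as log2 signal relative to the array's 75th percentile, with 1 point per array and no error bars because each group has 1 array. For KLF2 and KLF5 the okadaic acid point lies well above the other two, and for KLF7, KLF9 and KLF11 the cantharidin point is the lowest of the 3.

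**Figure D2:**
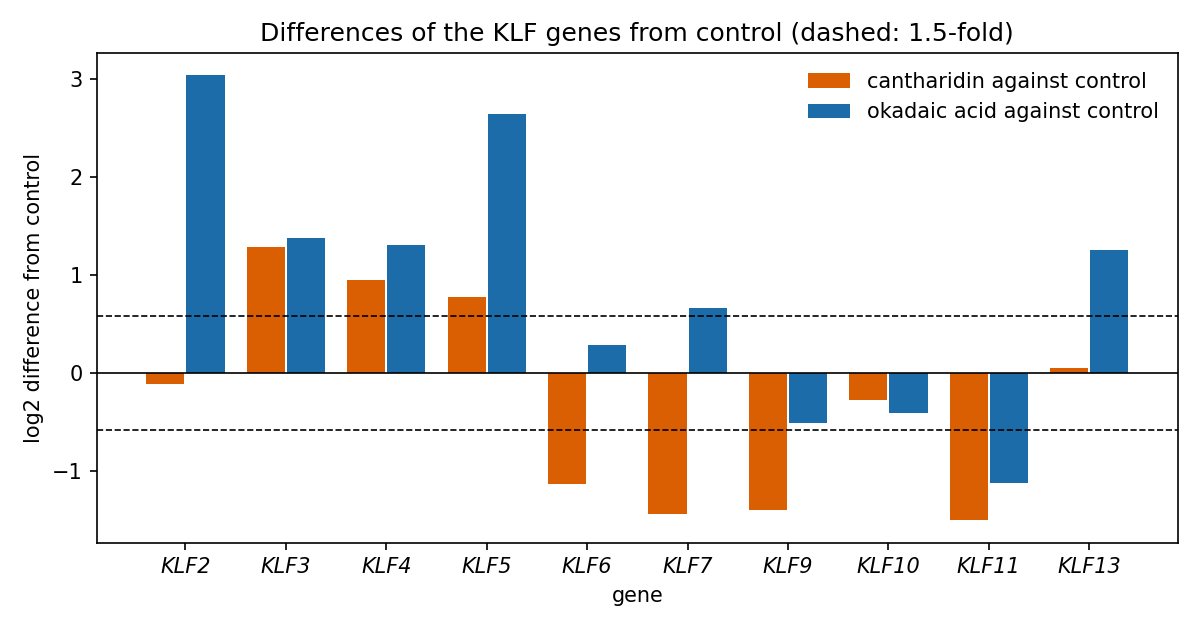
Log2 differences of the 10 KLF genes from control for cantharidin and okadaic acid, with dashed lines at 1.5-fold and no error bars because each group has 1 array. KLF2 has the largest difference, 3.04 with okadaic acid, and KLF7 lies past the lines in opposite directions with the 2 agents.

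The activating members, the largest set by role, gave the widest range of differences, and a range can widen with the number of genes. Of the 5, 2 were higher and 2 lower with cantharidin, and 4 were higher with okadaic acid, with log2 differences from 0.28 to 3.04. For comparison, 27.5% of all genes were higher and 34.1% lower with cantharidin, and 28.1% and 28.8% with okadaic acid. KLF2, known as a flow-responsive regulator of endothelial cells and a factor of T cell quiescence, had an intensity of 1486 in control, 1244 with cantharidin and 14595 with okadaic acid, as the mean of 10 spots of 1 probe on the log2 scale. Control and cantharidin were close, and okadaic acid stood apart, 8.23-fold above control after scaling (log2 difference 3.04). The cantharidin signal was 1.09-fold below control (log2 difference -0.12), which did not pass 1.5-fold.

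The KLF2 spots showed how far the reading varied within an array. In control they ran from 1406 over a median of 1501 to 1554, with cantharidin from 1110 over 1242 to 1433, and with okadaic acid from 13802 over 14817 to 15018. The okadaic acid spots did not overlap those of either other array, while the highest cantharidin spot lay above the lowest control spot. Pairing the spots at the same place on the arrays, the log2 difference from control was 3.04 ± 0.08 (SD, n = 10 spots) with okadaic acid, ranging from 2.90 to 3.13. With cantharidin it was -0.12 ± 0.07 (SD, n = 10 spots), below 0 in 9 of 10. These spots hold the same RNA and are not replicates of the treatment.

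**Figure D3:**
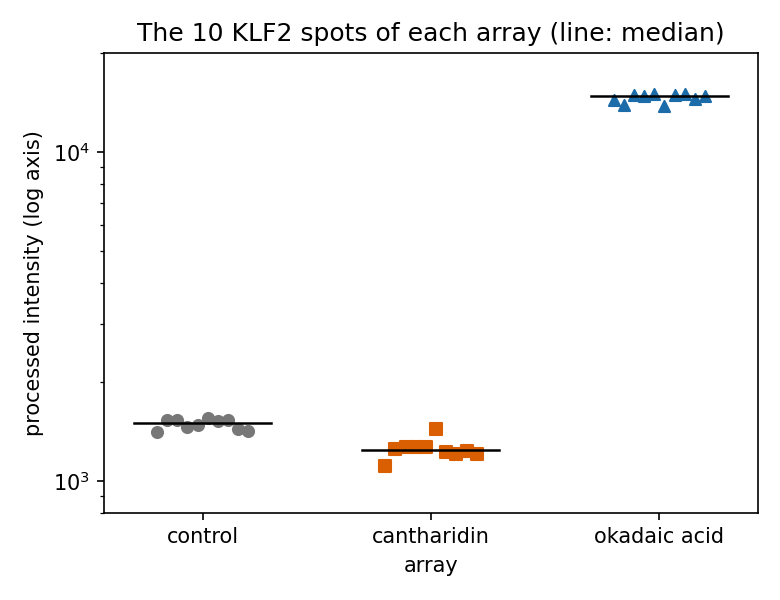
Processed intensity of the 10 KLF2 spots on each array, on a log axis, with 1 point per spot and a line at the median. The okadaic acid spots (13802 to 15018) lie above all control spots (1406 to 1554) and all cantharidin spots (1110 to 1433).

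KLF4, a barrier factor of differentiated epithelia and a reprogramming factor, gave 639 in control, 1118 with cantharidin and 1887 with okadaic acid. Control was the lowest of the 3, and the scaled signal was 1.93-fold higher with cantharidin (log2 0.95) and 2.47-fold higher with okadaic acid (log2 1.31). KLF5, which promotes proliferation of epithelial progenitor cells, gave 397, 616 and 2966 in the same order. It was 1.71-fold higher with cantharidin (log2 0.77) and 6.26-fold higher with okadaic acid (log2 2.65), the second largest difference of the family members described here.

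KLF6 and KLF7 differed in direction between the agents. KLF6, an early response gene known as a tumour suppressor, gave 4101 in control, 1703 with cantharidin and 5955 with okadaic acid. Cantharidin was the lowest array, 2.19-fold below control (log2 -1.13), and okadaic acid was 1.22-fold above control (log2 0.28), which did not pass. A further KLF6 probe, for another transcript variant, gave 13.0, 19.4 and 14.2, on none of the arrays well above background, so it yielded no fold. KLF7, a factor of neuronal growth that is also expressed widely, gave 355, 119 and 673. It was 2.71-fold lower with cantharidin (log2 -1.44) and 1.59-fold higher with okadaic acid (log2 0.66). The okadaic acid difference of KLF7 was under 1.5-fold with median scaling (log2 0.54) and after normexp background correction (log2 0.49).

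The promoter letters of KLF2, KLF4, KLF6, KLF9 and KLF13 are printed, the 5 members with a single RefSeq start among those with an entry used here. KLF2, KLF4 and KLF13 were higher with okadaic acid, and KLF6 and KLF9 were lower with cantharidin. Each run is the 250 bases before the start on the gene's strand, 5′ to 3′, from RefSeq on GRCh38.p14: chr19:16324576-16324825 (plus strand) for KLF2, chr9:107489770-107490019 (minus) for KLF4, chr10:3785210-3785459 (minus) for KLF6, chr9:70414658-70414907 (minus) for KLF9 and chr15:31326585-31326834 (plus) for KLF13. Capitals mark the letters GGGCGG, the MEF2 motif and the shorter run CACCC, each on either strand, and neighbouring matches may overlap.
KLF2: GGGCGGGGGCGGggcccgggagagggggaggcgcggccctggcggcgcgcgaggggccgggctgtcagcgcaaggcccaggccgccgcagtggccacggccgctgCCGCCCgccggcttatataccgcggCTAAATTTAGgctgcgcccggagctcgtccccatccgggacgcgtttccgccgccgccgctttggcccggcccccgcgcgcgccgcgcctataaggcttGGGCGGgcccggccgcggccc
KLF4: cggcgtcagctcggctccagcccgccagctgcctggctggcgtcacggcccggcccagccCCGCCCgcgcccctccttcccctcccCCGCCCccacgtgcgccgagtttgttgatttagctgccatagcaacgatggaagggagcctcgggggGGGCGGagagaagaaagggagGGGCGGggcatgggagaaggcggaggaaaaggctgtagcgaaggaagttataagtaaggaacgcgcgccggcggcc
KLF6: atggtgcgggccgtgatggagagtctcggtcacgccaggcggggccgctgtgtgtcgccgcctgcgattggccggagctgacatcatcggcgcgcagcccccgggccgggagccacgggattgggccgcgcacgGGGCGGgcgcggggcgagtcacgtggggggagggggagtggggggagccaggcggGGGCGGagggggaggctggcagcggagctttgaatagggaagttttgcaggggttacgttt
KLF9: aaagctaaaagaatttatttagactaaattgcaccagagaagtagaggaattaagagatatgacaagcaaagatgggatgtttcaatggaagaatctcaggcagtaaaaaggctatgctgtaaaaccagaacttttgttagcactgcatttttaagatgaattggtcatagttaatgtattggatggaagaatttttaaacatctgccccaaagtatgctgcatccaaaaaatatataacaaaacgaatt
KLF13: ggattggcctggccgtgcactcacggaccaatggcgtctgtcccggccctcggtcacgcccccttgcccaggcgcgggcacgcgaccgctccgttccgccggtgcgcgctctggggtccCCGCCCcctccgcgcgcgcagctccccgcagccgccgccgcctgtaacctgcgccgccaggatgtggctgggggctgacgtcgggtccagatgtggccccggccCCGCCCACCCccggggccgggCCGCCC

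The letters GGGCGG, the core of the GC box bound by SP and KLF proteins, occurred 4 times before KLF2, 4 times before KLF4, 2 times before KLF6, 3 times before KLF13 and not before KLF9. CACCC occurred once in these runs, before KLF13, where it overlaps GGGCGG read on the other strand. The MEF2 motif, the target of the MEF2 factors through which the ERK5 kinase is known to act on KLF2, occurred once, 120 bases before the KLF2 start. Over 13 windows of the 8 members with an entry used here, GGGCGG was found in 8, CACCC in 6 and the MEF2 motif in 1. Over all 35116 windows of this length the shares were 42.6%, 54.7% and 2.8%. The GC content of the printed runs was 80.0% (KLF2), 69.2% (KLF4), 72.4% (KLF6), 32.4% (KLF9) and 78.8% (KLF13), beside a median of 58.0% over all windows. The windows of members with several starts held 40.8% and 70.8% for KLF5, 41.6% to 72.0% for KLF7, and 74.4% and 78.8% for KLF11. A match describes the letters and is not a measured binding site.

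KLF3, the CtBP-binding repressor, known for its role in erythroid and fat cells, gave 70.8 in control, 157 with cantharidin and 220 with okadaic acid, so control was the lowest of the 3. The scaled signal was 2.45-fold higher with cantharidin (log2 1.29) and 2.60-fold higher with okadaic acid (log2 1.38). The control signal was only 2.02 times the floor, and after normexp correction, which shrinks differences of dim probes, the log2 differences were 0.68 and 0.67. The partners CTBP1 and CTBP2, named here for this role and not by size, gave log2 differences of 0.02 and 0.29 with cantharidin, and -0.95 and 0.45 with okadaic acid. Their dimmer probes gave -0.46 for CTBP1 and 0.72, past 1.5-fold, for CTBP2 with cantharidin. With okadaic acid these probes gave -1.22 and 0.17.

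Among the 4 SIN3-binding members none was higher with cantharidin and 2 were lower, while 1 was higher and 1 lower with okadaic acid. The shares of all genes were 27.5% higher and 34.1% lower with cantharidin, and 28.1% and 28.8% with okadaic acid. KLF9, induced by thyroid and glucocorticoid hormones, gave 1445 in control, 498 with cantharidin and 1212 with okadaic acid. It was 2.64-fold lower with cantharidin (log2 -1.40), while the okadaic acid difference of -0.51 did not pass 1.5-fold and did so only under median scaling (-0.63). KLF10, first known as a gene induced early by TGF-β, gave 8467, 6347 and 7593. Its 3 signals were close, with log2 differences of -0.28 and -0.41, neither past 1.5-fold.

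KLF11, a TGF-β-inducible repressor known for its role in pancreatic beta cells and exocrine cells, gave 1088 in control, 348 with cantharidin and 598 with okadaic acid. Control was the highest array, and KLF11 was 2.84-fold lower with cantharidin (log2 -1.51) and 2.17-fold lower with okadaic acid (log2 -1.12). KLF13, a factor of lymphocytes and heart that binds GC boxes, gave 5203, 4880 and 14874. Control and cantharidin were nearly equal (log2 0.05), and okadaic acid was 2.40-fold higher than control (log2 1.26).

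The arrays of the 2 agents were also compared directly, which does not use the control array. Okadaic acid was more than 1.5-fold above cantharidin for 6 of 10 members, KLF2, KLF5, KLF6, KLF7, KLF9 and KLF13. It was more than 1.5-fold below cantharidin for 0, where 29.5% of 16198 genes were higher and 22.3% lower. Without scaling between arrays, 8 members were higher, beside 47.1% of all genes higher and 13.9% lower. The members' median log2 difference was 1.05, beside 0.13 over all genes. KLF2 was 8.93-fold higher with okadaic acid than with cantharidin (log2 3.16), KLF7 4.29-fold (2.10) and KLF5 3.67-fold (1.87).

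Of the remaining differences between the agents, KLF6 was 2.66-fold higher with okadaic acid (log2 1.41), KLF13 2.32-fold (1.21) and KLF9 1.85-fold (0.89). The other 4 did not pass, with log2 values of 0.09 for KLF3, 0.36 for KLF4, 0.39 for KLF11 and -0.13 for KLF10. Of these, KLF4 (0.76) and KLF11 (0.78) passed without scaling. The sample labels give 20 µM for each agent, but the treatment text states the concentration before cantharidin only, so whether okadaic acid was used at the same concentration is uncertain. Inhibition of the phosphatase was not measured on these arrays.

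**Figure D4:**
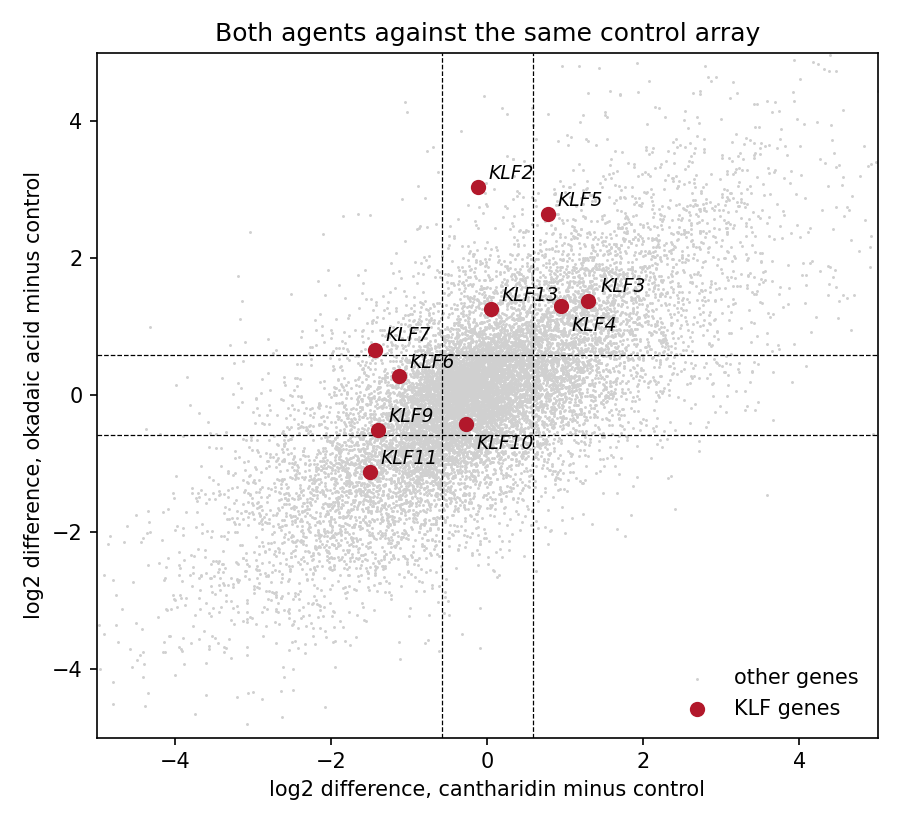
Log2 difference from control with cantharidin (x axis) and with okadaic acid (y axis) for 14220 genes well above background on all arrays (grey, 75 lie outside the axes), with the 10 KLF genes named. Both axes share the control array, so a common tilt of the points is not a result, and KLF2 lies high on the okadaic acid axis at a cantharidin difference near 0.

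By the fixed rule, the genes whose pair of differences lay nearest to that of KLF2, the member with the largest difference, were sought among 14220 genes over 3 arrays, by Euclidean distance on the log2 scale. They were A1BG-AS1 (distance 0.116, log2 differences -0.02 and 3.10), SP9 (0.125, -0.03 and 2.95) and HBA2 (0.207, 0.09 and 3.02). HBA2 has the near-identical copy HBA1, so its probes are uncertain. For KLF11, the member with the largest decrease, they were ADISSP (0.0316, -1.54 and -1.12), PCDHGA8 (0.0381, -1.51 and -1.16) and ASRGL1 (0.0396, -1.53 and -1.09). PCDHGA8 belongs to a gene cluster with shared exons and is likewise uncertain.

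Other KLF and SP factors were read as the nearest relatives of the members. Of 17 listed, 16 had a probe, and with cantharidin 4 of 15 compared were higher and 4 lower (median log2 -0.03). With okadaic acid 8 of 16 were higher, 1 of them as a bound, and 2 lower (median 0.62). Over all genes compared, the shares were 27.5% higher and 34.1% lower with cantharidin, and 28.1% and 28.8% with okadaic acid. SP6, a factor of tooth and skin development, gave 75.9 in control, 1376 with cantharidin and 2472 with okadaic acid, 19.9-fold and 27.3-fold above control. Its control signal was only 2.17 times the floor. KLF17, a germ cell and early embryo factor, gave 451, 3805 and 6069, 9.28-fold and 11.3-fold above control.

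SP9 gave 102 in control, 90.5 with cantharidin and 939 with okadaic acid, with log2 -0.03 with cantharidin and 7.75-fold above control with okadaic acid. SP4 was 3.14-fold higher with cantharidin and 3.40-fold with okadaic acid. SP5, a Wnt-responsive factor named after its values were seen, as the 1 gene of this list given by a bound, was not well above background in control or with cantharidin and was at least 5.56-fold higher with okadaic acid than in control.

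The MEK5-ERK5-MEF2 route is the known inducer of KLF2 and KLF4 in endothelium. Of 11 listed genes, 10 were compared, with 4 higher and 2 lower with cantharidin and 6 higher and 1 lower with okadaic acid (median log2 0.43 and 0.73). Beside these counts, 27.5% of all genes were higher and 34.1% lower with cantharidin, and 28.1% and 28.8% with okadaic acid. The list also holds KRIT1, CCM2 and PDCD10, which are not kinases or MEF2 factors of this route. PDCD10 (log2 0.78) was among the 6 higher with okadaic acid, so the counts are not of inducers alone. MEF2A, a transcription factor at the end of the route, gave 501 in control, 2777 with cantharidin and 2858 with okadaic acid (6.10-fold and 4.78-fold higher). MAPK7, which encodes the ERK5 kinase, gave 1433, 5999 and 5732 (4.61-fold and 3.35-fold higher). MAP2K5, encoding MEK5, the kinase above it, gave 428, 237 and 75.1 (1.64-fold and 6.80-fold lower). Its okadaic acid signal was only 1.29 times the floor. The part of these genes in the KLF2 and KLF4 differences was not tested. MEF2B was 2.69-fold higher with cantharidin and 1.60-fold with okadaic acid. The MEF2D probes, named because they disagreed, gave log2 differences of 0.79 and -1.27 with cantharidin.

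Of 12 cofactors of KLF proteins, 5 were higher and 3 lower with cantharidin (median log2 0.15), and 3 higher and 5 lower with okadaic acid (median 0.15). Shares over all genes were 27.5% higher and 34.1% lower with cantharidin, and 28.1% and 28.8% with okadaic acid. EP300, the acetyltransferase p300, gave 155 in control, 902 with cantharidin and 1058 with okadaic acid, 6.42-fold and 5.74-fold higher. CREBBP, its close relative, was 5.26-fold higher with cantharidin, and its log2 difference with okadaic acid was 0.55, which did not pass. SIN3B, a corepressor of the SIN3 type, was 3.70-fold and 1.84-fold higher. SIN3A, of the same type and named for this role, was 1.81-fold lower with cantharidin. Its log2 difference with okadaic acid was 0.27, which did not pass. KAT2B, an acetyltransferase, was 2.66-fold lower with okadaic acid, and its log2 difference with cantharidin was -0.57, which did not pass. Its okadaic acid signal was only 1.80 times the floor.

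KLF proteins are short-lived and are removed after ubiquitination. The 12 listed genes known to act on them encode ubiquitin ligases and also proteases that remove ubiquitin. The counts therefore do not measure removal alone. Of these genes, 6 of 11 compared were higher and 3 lower with cantharidin, 2 of these calls resting on bounds (median log2 0.87). With okadaic acid 5 of 10 were higher and 2 lower, 1 of these calls resting on a bound (median 0.77). Among all genes, 27.5% were higher and 34.1% lower with cantharidin, and 28.1% and 28.8% with okadaic acid. FBXW7, a ligase subunit that targets KLF2 and KLF5, gave 210 in control, 533 with cantharidin and 2320 with okadaic acid, 2.79-fold and 9.24-fold higher. VHL, a ligase subunit for KLF4, was 7.91-fold and 6.12-fold higher, and BTRC 2.59-fold and 4.98-fold. The BTRC signal in control was only 1.34 times the floor. Protein was not measured on these arrays.

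Of 30 genes known as KLF targets, 25 were compared, with 4 higher and 9 lower with cantharidin (median log2 -0.13) and 6 higher and 5 lower with okadaic acid (median -0.02). Over all genes compared, 27.5% were higher and 34.1% lower with cantharidin, and 28.1% and 28.8% with okadaic acid. THBD, thrombomodulin, a gene that KLF2 activates in endothelium, gave 1024 in control, 3713 with cantharidin and 6844 with okadaic acid, 3.99-fold and 5.60-fold above control. CDKN1C, a cell cycle inhibitor, gave 13557, 6046 and 285283 and was 2.04-fold lower with cantharidin and 17.6-fold higher with okadaic acid. CDKN1B, another such inhibitor, gave 5000, 252 and 1373 and was 18.0-fold lower with cantharidin and 4.35-fold lower with okadaic acid. Its dimmer probe gave 235, 36.9 and 131, the same order of the arrays at a smaller size. TXNIP was 96.5-fold lower with cantharidin and 14.4-fold lower with okadaic acid, and CDKN1A was 9.93-fold and 5.55-fold higher. The TXNIP signal with cantharidin, 38.9, was only 1.78 times the floor, so the size of that fold is uncertain.

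The differences from control kept their sign for every KLF member past 1.5-fold under all alternatives that were tried. Some alternatives, such as other filters, could not move them, since all members were well above background on all arrays. KLF2 with okadaic acid ranged from 2.92 to 3.30 on the log2 scale, KLF5 from 2.36 to 2.90 and KLF11 from -1.24 to -0.86. With cantharidin KLF11 ranged from -1.64 to -1.22 and KLF7 from -1.65 to -1.08.

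**Figure D5:**
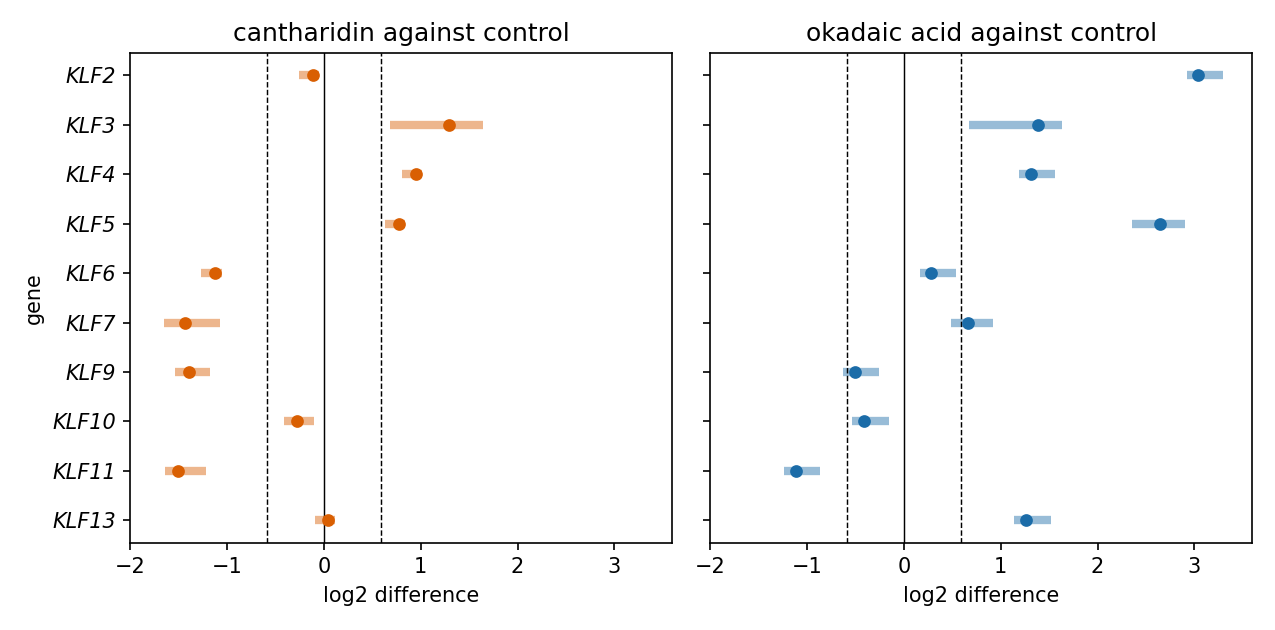
Log2 differences from control of each KLF gene under the main processing and its alternatives, 1 panel per agent. The point is the main value, and the bar runs from the lowest to the highest value of the alternatives. The KLF2 values with okadaic acid lie between 2.92 and 3.30, and the values of KLF7 with okadaic acid reach down to 0.49.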

How the data were processed

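RNA from 3 PANC-1 cultures was hybridised to Agilent 1-colour (Cy3) arrays. The authors deposited spot intensity values from Feature Extraction 11.0.1.1, which per the file headers are background-subtracted and detrended within each array, with flags as other columns and annotation on hg19. The authors also deposited normalized log2 values for 30923 probes, by a method not given in the sources used here, and these were used as an alternative. Groups came from the labels.

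Per probe, log2 processed intensity was taken as the mean of the spots not marked as outliers (34041 of 34127 transcript probes), and the array's 75th percentile (784 for control, 713 for cantharidin, 936 for okadaic acid) was subtracted. Accessions without version were matched to RefSeq (GRCh38.p14). A gene was its probe with the highest mean signal, compared where at least 1 array of the pair had it well above background. Where a probe was dim on 1 array, the fold is a bound against the higher of its own signal and the array's lowest signal well above background. No probe was saturated. A difference past 1.5-fold, the threshold of the study, was called. The number of arrays limits the precision.

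All members were named. Of each other list, at most 3 genes per agent were named by size of difference among genes well above background on both arrays. The 3 genes nearest to the members of largest increase and decrease were also named. SP5, CTBP1, CTBP2, SIN3A, MEF2D, KRIT1, CCM2 and PDCD10 were named outside this rule. The members and lists were chosen with earlier results of these data known. KLF18 was not analysed here. Of the genes that the rule names, 1 cofactor is not reported here. Alternatives were other scalings (median, probes detected on all arrays, quantile, none), normexp background correction (offset 50, on the median spot and background signals), other filters, a 2-fold threshold, dim signals at the floor, probe rules, the deposited table and centring within 16 blocks of the array, which was chosen after seeing the data. Counting was tested on simulated data. Software was R 4.3.3, limma 3.58.1, Python 3.11.15, numpy 2.4.6, pandas 2.3.3 and matplotlib 3.10.9.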

Additional observations from a re-analysis of the deposited data

Results flagged for a closer look

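KLF7 was past 1.5-fold in opposite directions with the 2 agents, with a log2 difference from control of -1.44 with cantharidin and 0.66 with okadaic acid. The difference between these effects was not tested, since each group has 1 array and both use the same control array. The okadaic acid value was under 1.5-fold with median scaling (0.54) and after normexp correction (0.49).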

How the results depend on the processing

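No called difference of a KLF member changed sign under the alternatives run, and 325 of 330 member values kept their side of 1.5-fold. The exceptions were KLF7 with okadaic acid (0.54 with median scaling, 0.49 with normexp), KLF9 with okadaic acid (-0.63 with median scaling), and KLF4 (0.76) and KLF11 (0.78) between the agents without scaling. Other filters, dim signals at the floor and the median over a gene's probes could not move the member values. Every member's gene probe was well above background on all arrays. At 2-fold the members higher with cantharidin were 1 in place of 3, where 20.1% of all genes were higher in place of 27.5%. KLF7 with okadaic acid (0.66) and KLF9 between the agents (0.89) also did not pass 2-fold. With median scaling the members lower with okadaic acid were 2 in place of 1, where 32.4% of all genes were lower in place of 28.8%. The members' median log2 difference moved for cantharidin from -0.20 to -0.13 with the percentile over probes detected on all arrays, -0.10 with centring within blocks and -0.34 without scaling. For okadaic acid it moved from 0.96 to 1.04 with that percentile, 0.84 with median scaling, 1.22 without scaling and 0.58 with normexp. Between the agents it moved from 1.05 to 0.90 with median scaling, 1.45 without scaling and 0.94 with normexp. Scaling also moved the median over all genes, from -0.30 to -0.09 for cantharidin, -0.11 to 0.26 for okadaic acid and -0.02 to 0.52 between the agents. No paired analysis was possible because each group has 1 array. Noise between spots at intensities of 50 to 100, where KLF3 lay in control, had an SD of 0.16 to 0.22 on the log2 scale, and the spread between cultures is unknown.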
